A study of Mus musculus with 6 samples.

Results

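The 51 DNA replication and S-phase genes described here were listed by function, as genes of origin licensing, of the replisome and of nucleotide supply. The rule that lists them uses no measured value, but it was written with earlier results of these data known. All 51 were found among the 35027 genes of the table. They were measured by RNA-seq of thyroid tumor cells that had been sorted for Kate from mice of 2 genotypes, with 3 libraries each. YAP tumors came from mice with RIK and tetO-YAP1 S127A, induced in thyroid follicular cells, and BrafYAP tumors from mice that carried these alleles and LSL-Braf V600E. RIK supplies the doxycycline (dox)-controlled activator together with the red fluorescent protein Kate, S127A makes YAP constitutively nuclear, and V600E activates the kinase Braf, here expressed from its own locus. By the labels and the paper's methods both groups received dox chow from 4 weeks of age, while the paper's results section names a later start. Both groups carried the YAP transgene, so that only mutant Braf set the genotypes apart and neither group lacked YAP S127A. The mice were kept on a mixed background, and age at collection and sex were not given in the sources used here. Each library was made from about 20000 cells. The labels describe the YAP libraries as pools of 3 tumors and the BrafYAP libraries as single tumors, so pooling and genotype cannot be told apart.

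DNA replication starts at origins, where the origin recognition complex, Cdc6 and Cdt1 load the ring of MCM proteins in G1. In S phase, Cdc45 and the GINS complex turn that ring into an active helicase, primase and polymerases copy the strands behind it, and the sliding clamp Pcna keeps the polymerases on the DNA. Transcription of most of these genes is driven by E2F factors, which the RB proteins hold back in resting cells, and the transcripts therefore mark cells that are entering or passing through S phase.

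The question was how this machinery differed between tumors with YAP alone and tumors with YAP and mutant Braf. Levels are given as scaled reads, which are the deposited values multiplied by each gene's genomic length, on the authors' common scale between libraries. The libraries held 26.2 to 36.9 M estimated reads, and PCR copies carry no molecular identifier, so read numbers bound the counting error only. Two-sided limma tests were run on log2(scaled reads + 1) for the 16834 genes that averaged 10 reads or more, a filter that all 51 members passed. BrafYAP replicate 6 stood apart, with a correlation of 0.73 to 0.84 to the other 5 libraries across genes, against 0.83 to 0.97 among those. Scaled reads of Yap1 were 783, 781 and 907 in YAP replicates 1, 2 and 3, and 1368, 1466 and 264 in BrafYAP replicates 1, 2 and 6, and the sources used here do not say whether transgene reads count towards this gene. The V600E change is not visible in a table of gene levels. The thyroid factor Pax8 was present in each library, at 5189 to 14663 scaled reads, whereas the receptor gene Tshr was at 0 in BrafYAP replicates 1 and 2.

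Transcripts of the replication machinery were lower in BrafYAP than in YAP libraries for 45 of 51 members, where 55.7% of all tested genes were lower. The median log2 fold change of the members was -0.91, against -0.12 for all genes tested. The summed scaled reads of the members ranged from 53245 to 58549 in YAP and from 29530.3 to 37792 in BrafYAP, without overlap. The lowest members were Cdc6, Clspn, Pclaf, Mcm10 and Pole, at log2 fold changes of -3.67 to -2.42, and the 6 members with a higher mean in BrafYAP were Dut, Cdt1, Mcm6, Chaf1a, Rfc5 and Gins4, at 0.55 to 1.45. In bulk RNA, fewer cells in S phase, less of these transcripts per cell and a different mix of cell types cannot be told apart.

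No single member passed the threshold. With limma and Benjamini-Hochberg adjustment over all genes, 0 of 16834 genes (0%) had an adjusted p-value under 0.05, and 3404 had an unadjusted p-value under 0.05. The lowest adjusted p-value of a member was 0.0517, for Pclaf. At an unadjusted p-value under 0.05, 26 members were lower in BrafYAP, where 10.5% of all genes tested were, and 1 member, Dut, was higher, where 9.68% were. All 3 BrafYAP libraries lay below all 3 YAP libraries for 30 members (background 17.1%), and 0 members showed the opposite separation (background 11.6%). With library weights in limma, which give less weight to libraries that fit the groups poorly, 15 members were lower at an adjusted p-value under 0.05 (background 5.33%). Only 1 member, Dut, was higher, where 986 of the 16834 genes were. In all, 1884 genes passed with these weights, whose gene-by-gene estimate was chosen after seeing the data.

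**Figure D1:**
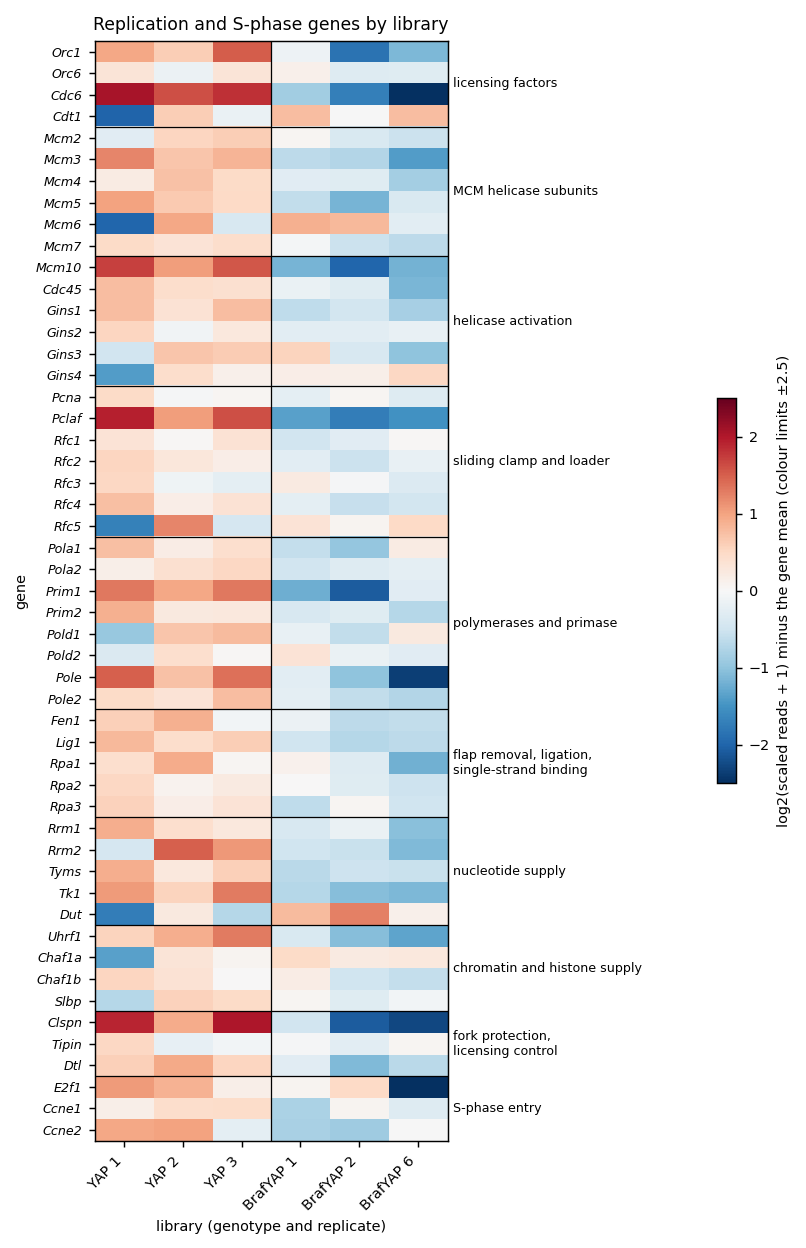
Rows are the 51 members by role, columns the 6 libraries, and colour is log2(scaled reads + 1) minus the gene's mean over the libraries, limited to ±2.5. Most rows are red in the 3 YAP columns and blue in the 3 BrafYAP columns. Some rows are blue in YAP replicate 1, among them Cdt1, Mcm6, Gins4, Rfc5, Dut, Chaf1a, Pold1, Slbp, Gins3 and Rrm2.

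E2F factors bind near the start sites of many replication genes, and the members' promoters were therefore searched for the E2F core. RefSeq promoters (GRCm38.p6, 250 bases before to 50 bases after the start) were matched for 42 of 51 members, and the core was read as TTNNCGC on either strand, with each N limited to C or G. The core was found in 27 of 42 member promoters (64.3%), in 10.9% of all 27025 promoters, in 13.7% of protein-coding ones and in 18.3% of those of genes tested. It was present in 18 of 24 promoters (75.0%) of members whose BrafYAP libraries all lay below the YAP libraries and in 9 of 18 promoters (50%) of the other members. The CCAAT box (CCAAT, either strand) was found in 27 of 42 member promoters (64.3%), in 41.1% of all promoters and in 42.5% of those of genes tested. The cell cycle homology element, common in mitotic genes (TTTGAA or TTCGAA, either strand), was found in 7 of 42 (16.7%), in 21.7% of all and in 16.8% of those of genes tested. None of these motifs contains another, and a match is a description of letters, not of binding. The 100 bases before the start are printed for 6 of the 12 members with a core in that stretch, namely the 3 with the lowest and the 3 with the highest log2 fold change, with the core in capitals. Since only members with a core in that stretch were printed, its place near the start in all 6 follows from the choice and does not compare the members.
Prim1, chr10:128015115-128015214, plus strand: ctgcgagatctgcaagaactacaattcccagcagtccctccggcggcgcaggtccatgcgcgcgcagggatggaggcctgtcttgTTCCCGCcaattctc
Orc1, chr4:108579354-108579453, plus strand: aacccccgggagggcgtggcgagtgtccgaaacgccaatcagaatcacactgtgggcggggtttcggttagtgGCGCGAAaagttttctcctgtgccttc
Uhrf1, chr17:56303237-56303336, plus strand: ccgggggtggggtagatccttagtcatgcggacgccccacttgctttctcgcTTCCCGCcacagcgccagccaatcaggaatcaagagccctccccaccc
Rfc3, chr5:151651209-151651308, minus strand: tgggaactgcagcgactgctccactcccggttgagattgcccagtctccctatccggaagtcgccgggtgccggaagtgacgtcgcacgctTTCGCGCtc
Chaf1a, chr17:56040316-56040415, plus strand: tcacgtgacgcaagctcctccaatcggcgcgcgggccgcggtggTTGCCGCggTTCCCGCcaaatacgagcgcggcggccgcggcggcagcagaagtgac
Mcm6, chr1:128359706-128359805, minus strand: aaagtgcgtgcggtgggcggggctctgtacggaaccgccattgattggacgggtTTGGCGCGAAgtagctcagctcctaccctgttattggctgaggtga
The capitals of Mcm6 are 2 cores on opposite strands that share bases, and those of Orc1 are the core of the opposite strand.

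Among the 4 licensing factors, Cdc6 and Orc1 were lower in BrafYAP without overlap, Orc6 differed little and Cdt1 had a higher mean. Cdc6, the ATPase that brings the MCM ring to the origin (chr11:98907801-98923940 on mm10), had 454, 330.4 and 384 scaled reads in YAP replicates 1, 2 and 3. In BrafYAP replicates 1, 2 and 6 it had 58.7, 32.2 and 13.1. Each BrafYAP library was thus far below each YAP library, and the difference, -3.67 ± 0.56 (log2 fold change ± SE, 12.8-fold), was the lowest of the 51 members (limma adjusted p = 0.0666). Orc1, the origin complex subunit that comes and goes with the cycle (chr4:108579423-108614833), had a mean of 207 ± 66.9 in YAP and 53.6 ± 32.5 in BrafYAP (SD, n = 3 each). Orc6, the smallest subunit of the complex (chr8:85299632-85308278), had 784, 564 and 788 scaled reads in YAP and 680.3, 502 and 509.7 in BrafYAP. The groups overlapped, and its log2 fold change was -0.33 ± 0.30 (limma adjusted p = 0.552).

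Cdt1, the partner of Cdc6 in loading the MCM ring (chr8:122568015-122573554), had 63.7, 396 and 231 scaled reads in YAP and 442, 257 and 442 in BrafYAP. The lowest library was YAP replicate 1, and YAP replicate 2 lay within the BrafYAP values. Its log2 fold change of 1.03 ± 0.67 (limma adjusted p = 0.418) was 0.29 without YAP replicate 1 and 1.59 without YAP replicate 2. Cdt1 overlaps the protein-coding gene Gm20388, and the strand used in counting was not stated, so reads of overlapping genes cannot be told apart. It is 1 of 15 members that overlap a protein-coding gene, and the others are Orc6, Mcm7, Gins2, Cdc45, Pclaf, Rfc2, Rfc4, Rfc5, Pole2, Fen1, Lig1, Tk1, Chaf1a and Ccne2.

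Of the 6 MCM subunits, which form the ring of the helicase in equal numbers, Mcm3, Mcm4, Mcm5 and Mcm7 were lower in BrafYAP without overlap (background 17.1%). Their log2 fold changes were -1.85 to -0.84. Mcm7 (chr5:138164583-138172422) had 2898, 2658 and 2833 scaled reads in YAP and 2017, 1432 and 1320.3 in BrafYAP. The YAP libraries lay close together and above all BrafYAP libraries, and the log2 fold change was -0.84 ± 0.28 (limma adjusted p = 0.165). Mcm3, chosen after its values were seen as the lowest subunit (chr1:20802968-20820312), had 3310.3, 2304 and 2551 scaled reads in YAP and 903, 854 and 539 in BrafYAP. It too was separated without overlap, by -1.85 ± 0.32 (limma adjusted p = 0.0789). Mcm2 overlapped between the groups, at 2348 ± 724 in YAP and 1545 ± 340.1 in BrafYAP (SD, n = 3 each), and its log2 fold change of -0.57 was -0.86 without YAP replicate 1.

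Mcm6 had a higher mean in BrafYAP. This subunit (chr1:128331590-128359664) had 497, 3868 and 1499 scaled reads in YAP and 3644, 3447 and 1636 in BrafYAP. The spread among the YAP libraries was wider than the difference between the groups, which was 0.94 ± 0.73 on the log2 scale (limma adjusted p = 0.489) and was 0.19 without YAP replicate 1 and 1.67 without YAP replicate 2. Per exonic length, the 6 subunits had mean TPM of 29.3 to 62.9 in YAP, with Mcm3 highest at 62.9 ± 12.4 (SD, n = 3). In BrafYAP the other 5 subunits had mean TPM of 17.5 to 32.2, and Mcm6 had 56.0 ± 21.6 (SD, n = 3).

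The 6 genes that activate the helicase had log2 fold changes of -2.88 to 0.55, with a median of -0.82. Mcm10, which helps the loaded ring to open and start unwinding (chr2:4989714-5012791), had 461, 289.8 and 409.9 scaled reads in YAP and 62.0, 34.5 and 61.3 in BrafYAP. The gap between the groups was larger than the range within either, at -2.88 ± 0.40 on the log2 scale, or 7.34-fold (limma adjusted p = 0.0590). Cdc45 and Gins1 were lower without overlap as well, by -1.07 ± 0.37 and -1.28 ± 0.36. Gins2 (chr8:120578633-120589304), a GINS subunit, had 1149, 746 and 944 scaled reads in YAP and 656, 653 and 695 in BrafYAP. Its BrafYAP libraries were nearly equal and below the YAP libraries, by -0.48 ± 0.28 (limma adjusted p = 0.377). Gins3 overlapped between the groups, at -0.57 ± 0.55, and ranged from -0.99 without BrafYAP replicate 1 and -0.96 without YAP replicate 1 to -0.36 without YAP replicate 2 and -0.21 without BrafYAP replicate 6. Gins4 (chr8:23226616-23237659), the member with the highest exonic TPM in BrafYAP at 69.4 ± 9.72 (SD, n = 3), had 325, 1154 and 940.3 scaled reads in YAP and 958, 951 and 1227 in BrafYAP. Only YAP replicate 1 was low, and the log2 fold change of 0.55 ± 0.50 (limma adjusted p = 0.551) was -0.01 without it and 0.91 without YAP replicate 2.

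**Figure D2:**
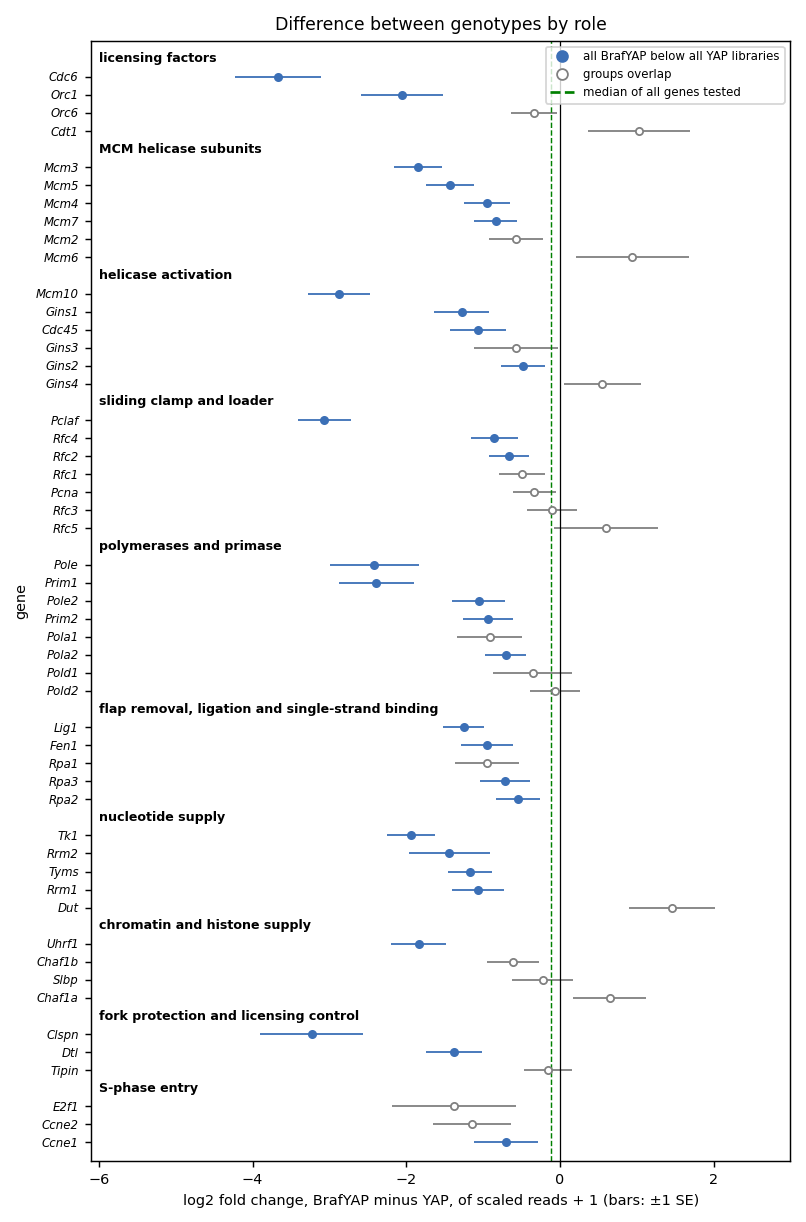
Each point is a member's log2 fold change (BrafYAP minus YAP, scaled reads + 1) with ±1 SE, grouped by role, filled where all BrafYAP libraries lay below all YAP libraries. There are 30 filled points, 45 points lie left of 0, and the dashed line marks the median of all genes tested, -0.12.

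Of the 7 genes of the sliding clamp and its loader, 3 were lower in BrafYAP without overlap (background 17.1%). The median log2 fold change over the role was -0.49. Pcna, the clamp (chr2:132249162-132253314), had 2410.3, 1676 and 1786 scaled reads in YAP and 1462, 1784 and 1380.3 in BrafYAP. BrafYAP replicate 2 lay within the YAP values, and the difference of -0.33 ± 0.28 on the log2 scale did not pass the threshold (limma adjusted p = 0.520) and was -0.17 without YAP replicate 1 and -0.10 without both YAP replicate 1 and BrafYAP replicate 6. The annotation holds the pseudogenes Pcna-ps1 and Pcna-ps2, which could share its reads. Pclaf, the PCNA clamp associated factor (chr9:65890237-65903266), had 1208, 646 and 955 scaled reads in YAP and 121, 93.4 and 109 in BrafYAP. Every BrafYAP library was far below every YAP library, by -3.07 ± 0.34 or 8.39-fold, with the lowest p-value of the members (limma adjusted p = 0.0517).

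The 5 subunits of the clamp loader spanned -0.85 to 0.60. Rfc2 (chr5:134581366-134601805), one of its small subunits, had 3385, 2855 and 2636 scaled reads in YAP and 1932, 1601 and 2057 in BrafYAP. The groups did not overlap, and the log2 fold change was -0.67 ± 0.26 (limma adjusted p = 0.219). Rfc4 was likewise separated, at -0.85 ± 0.31, whereas Rfc1 at -0.49 ± 0.30 and Rfc3 at -0.10 ± 0.33 overlapped. The sign of Rfc3 changed without YAP replicate 1, to 0.12, and without BrafYAP replicate 6, to 0.04, and without each of the other libraries but BrafYAP replicate 2 it was -0.26 to -0.18. Rfc5 had a mean of 799 ± 756 in YAP and 878 ± 129.8 in BrafYAP (SD, n = 3 each), and its log2 fold change of 0.60 was -0.10 without YAP replicate 1 and 1.36 without YAP replicate 2.

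All 8 polymerase and primase genes had a negative log2 fold change, with a median of -0.93, where 55.7% of all tested genes were lower. Of the 8, 5 were lower without overlap (background 17.1%). Pole, the catalytic subunit of the leading-strand polymerase (chr5:110286306-110337474), had 321, 188 and 296 scaled reads in YAP and 93.1, 55.7 and 21.3 in BrafYAP. All BrafYAP values were below the lowest YAP value, by -2.42 ± 0.58 on the log2 scale (limma adjusted p = 0.108). Its partner Pole2 differed by -1.06 ± 0.34. Of the complex that makes RNA-DNA primers, Prim1, the catalytic primase subunit, had a mean of 437 ± 57.8 in YAP and 93.4 ± 56.8 in BrafYAP (SD, n = 3 each), a log2 fold change of -2.39 ± 0.49 (limma adjusted p = 0.0904). Prim2, Pola2 and Pola1 differed by -0.94 ± 0.32, -0.71 ± 0.27 and -0.91 ± 0.42, and the groups overlapped for Pola1.

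The lagging-strand polymerase subunits showed small differences. Pold1, the catalytic subunit (chr7:44532746-44548849), had 802, 2519 and 2668 scaled reads in YAP and 1368, 1018 and 1845 in BrafYAP. YAP replicate 1 was the lowest of all 6 libraries, and the log2 fold change of -0.36 ± 0.52 (limma adjusted p = 0.721) was -0.92 without it and -0.05 without YAP replicate 3. It was -0.09 without YAP replicate 2, -0.14 without BrafYAP replicate 2 and -0.57 without BrafYAP replicate 6. Pold2, the second subunit (chr11:5872180-5878292), had 1061, 1812 and 1384 scaled reads in YAP and 1729, 1210.4 and 1114 in BrafYAP. The values were interleaved, at -0.06 ± 0.33 (limma adjusted p = 0.929), and the sign changed under 3 other settings and with 3 of the libraries left out in turn.

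The 5 genes of flap removal, ligation and single-strand binding all had negative log2 fold changes, from -1.25 to -0.55 (55.7% of all tested genes were lower). Of the 5, 4 were lower without overlap (background 17.1%). Fen1, the nuclease that trims the flaps of Okazaki fragments (chr19:10199132-10204169), had 2428, 2973 and 1537 scaled reads in YAP and 1439, 1019.6 and 1041 in BrafYAP. The highest BrafYAP library lay just below the lowest YAP library, and the log2 fold change was -0.95 ± 0.34 (limma adjusted p = 0.187). Lig1, the ligase that joins the fragments, differed by -1.25 ± 0.27 (limma adjusted p = 0.0952). Rpa1 (chr11:75298166-75348324), the large subunit of the protein that coats single-stranded DNA, had 2209, 3141 and 1706 scaled reads in YAP and 1778, 1305 and 709.5 in BrafYAP. BrafYAP replicate 1 lay above YAP replicate 3, so the groups overlapped, at -0.95 ± 0.42 (limma adjusted p = 0.260) and -0.58 without BrafYAP replicate 6. Rpa2 and Rpa3, the smaller subunits, were lower without overlap, by -0.55 ± 0.29 and -0.72 ± 0.32.

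Of the 5 genes of nucleotide supply, 4 were lower in BrafYAP without overlap (background 17.1%) and at an unadjusted limma p-value under 0.05 (background 10.5%). Tk1, the thymidine kinase of the salvage pathway (chr11:117815526-117826092), had 1925, 1345 and 2256 scaled reads in YAP and 557, 442 and 420.0 in BrafYAP. The lowest YAP library was well above the highest BrafYAP library, and the difference was -1.94 ± 0.31 on the log2 scale, or 3.83-fold (limma adjusted p = 0.0673). Rrm1, the large subunit of ribonucleotide reductase (chr7:102441695-102469771) and the member with the most scaled reads, had 5605, 3981 and 3576 in YAP and 2258, 2656 and 1440.3 in BrafYAP. It was separated without overlap by -1.07 ± 0.34 (limma adjusted p = 0.156). Rrm2, the small and cell-cycle regulated subunit, differed by -1.44 ± 0.52, and Tyms, which makes thymidylate, by -1.17 ± 0.29.

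Dut, which degrades dUTP and so keeps uracil out of DNA (chr2:125247190-125258608), had the highest log2 fold change of the members, 1.45 ± 0.56 (limma adjusted p = 0.214). It had 83.3, 330.2 and 169 scaled reads in YAP and 479.7, 668 and 303 in BrafYAP. YAP replicate 2 lay above BrafYAP replicate 6, so that the groups overlapped. Without YAP replicate 1 the log2 fold change was 0.96.

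The 4 genes of chromatin and histone supply ranged from -1.84 to 0.65. Uhrf1, which brings the maintenance methyltransferase to newly copied DNA (chr17:56303321-56323486), had 1509, 1935 and 2525 scaled reads in YAP and 789.7, 493 and 410.1 in BrafYAP. The groups were clearly apart, at -1.84 ± 0.36 (limma adjusted p = 0.0888). Slbp, which binds the end of histone mRNA (chr5:33634952-33652574), had 1045, 2561 and 2395 scaled reads in YAP and 1772, 1391 and 1641 in BrafYAP. Its BrafYAP libraries lay between YAP replicate 1 and the other YAP libraries, and the log2 fold change of -0.22 ± 0.40 (limma adjusted p = 0.777) was -0.64 without YAP replicate 1, 0.0099 without YAP replicate 2, -0.04 without YAP replicate 3 and -0.12 without BrafYAP replicate 2. The chromatin assembly factor subunits Chaf1a and Chaf1b, which lay down histones behind the fork, differed by 0.65 ± 0.47 and -0.61 ± 0.34, and both overlapped between the groups. Chaf1a was at 0.13 without YAP replicate 1.

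The fork and checkpoint genes held one of the lowest members. Clspn, the adaptor that stabilises stalled forks (chr4:126556935-126593903), had 114, 57.5 and 124 scaled reads in YAP and 21.05, 6.28 and 5.33 in BrafYAP. The BrafYAP values rest on few reads, but all lay below the lowest YAP value, by -3.23 ± 0.67 on the log2 scale (limma adjusted p = 0.0910). Dtl, the ubiquitin ligase adaptor that removes Cdt1 in S phase (chr1:191537356-191575544), had 225, 287 and 215 scaled reads in YAP and 122, 68.3 and 92.4 in BrafYAP. It was separated without overlap, by -1.38 ± 0.37 (limma adjusted p = 0.118). Tipin, a partner of the fork protection factor Timeless (chr9:64281581-64305424), had 967, 587 and 646 scaled reads in YAP and 667, 568 and 703 in BrafYAP. The groups overlapped, at -0.15 ± 0.31 (limma adjusted p = 0.800), and the value was 0.063 without YAP replicate 1, -0.30 without YAP replicate 2 and -0.06 without BrafYAP replicate 2.

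The 3 genes of S-phase entry had lower means in BrafYAP but wide spreads. E2f1, the activator of the G1/S program (chr2:154559407-154569892), had 692, 607 and 367 scaled reads in YAP and 350.1, 466 and 52.4 in BrafYAP. The log2 fold change of -1.38 ± 0.80 (limma adjusted p = 0.372) rested on BrafYAP replicate 6 and was -0.41 without it. Ccne2, a cyclin that activates Cdk2 at the G1/S boundary (chr4:11191351-11204779), had 158, 161 and 67.2 scaled reads in YAP and 45.3, 42.6 and 79.3 in BrafYAP. YAP replicate 3 was lower than BrafYAP replicate 6, so the groups overlapped, at -1.15 ± 0.51 (limma adjusted p = 0.261). Ccne1, its paralog, was lower without overlap at -0.70 ± 0.42, with no more than 83.4 scaled reads in any library.

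**Figure D3:**
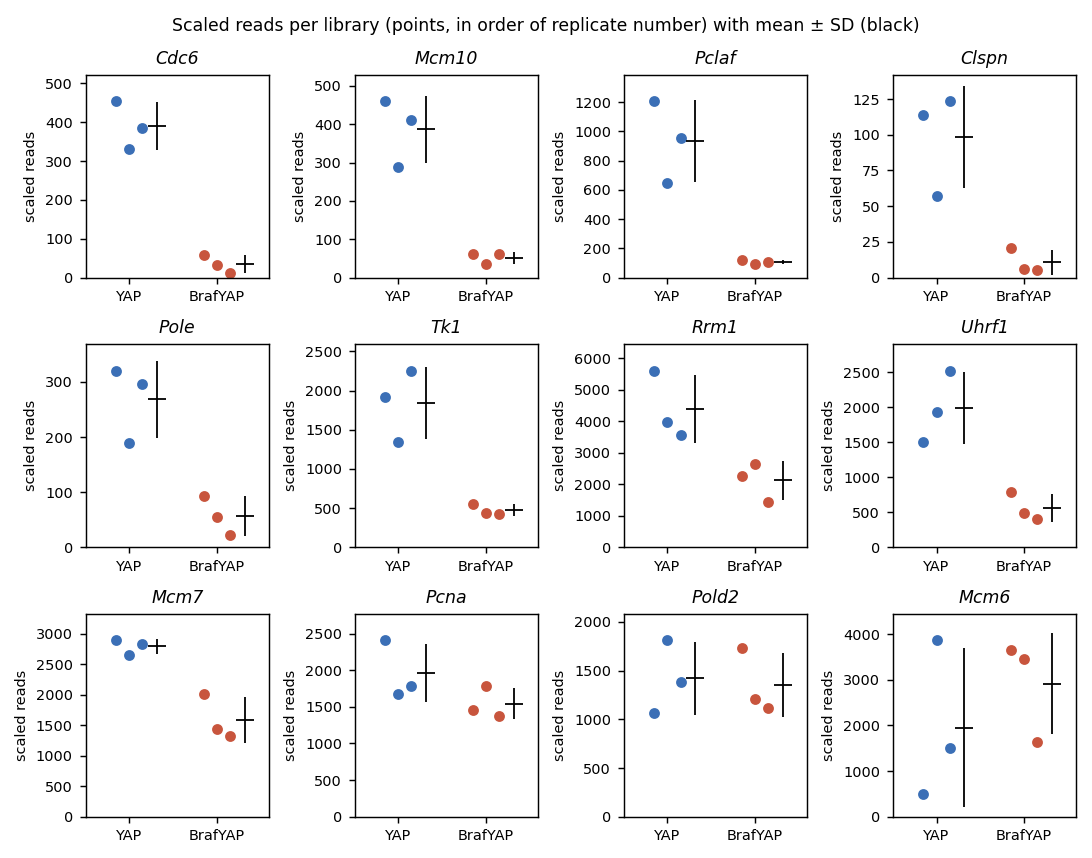
Scaled reads in each library for 12 members, with points in the order of the replicate numbers and the mean ± SD (n = 3) in black. For the members from Cdc6 to Mcm7 all BrafYAP points lie below all YAP points, whereas Pcna, Pold2 and Mcm6 overlap and Mcm6 ranges from 497 to 3868 among the YAP libraries.

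All 6 members with a higher mean in BrafYAP had their lowest YAP value in replicate 1. They were among 10 members more than 1 log2 unit lower in YAP replicate 1 than in the mean of the other YAP libraries, as 21.6% of all tested genes were. The other 4 were Gins3, Pold1, Rrm2 and Slbp. Without YAP replicate 1, Dut, Cdt1, Mcm6 and Chaf1a kept a positive log2 fold change of 0.13 to 0.96, while Rfc5 and Gins4 were at -0.10 and -0.01. The lower direction of the members as a group did not rest on that library. When each YAP library was set against each BrafYAP library, the median log2 difference of the members was -1.06 to -0.65 in the 9 pairs, against -0.20 to -0.04 for all genes tested, and 40 to 48 members were lower. The median log2 fold change was -0.88 without YAP replicate 1, -0.76 without BrafYAP replicate 6 and -0.69 without both, where 46 of 51 members were lower.

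Per exonic length, the most abundant members in YAP were Fen1, Pcna and Pold2, with mean TPM of 81.9 ± 22.6, 70.6 ± 14.4 and 64.6 ± 15.8 (SD, n = 3). These values lay within each other's spread. In BrafYAP, Gins4, Pold2 and Pcna led with 69.4 ± 9.72, 63.9 ± 15.4 and 57.7 ± 8.93 (SD, n = 3), again not apart from each other, and Fen1 had 43.2 ± 8.49. The least abundant member was Clspn in both groups, at 1.20 ± 0.47 in YAP and 0.136 ± 0.109 in BrafYAP (SD, n = 3). Across the 51 members, log2 fold change and log2 mean scaled reads had a Spearman correlation of 0.31, as a description over genes that share the 6 libraries.

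Of 84 further genes of the replication pathway, 83 were tested, with a median log2 fold change of -0.41. At an unadjusted limma p-value under 0.05, 23 were lower and 4 higher in BrafYAP, and 29 were lower and 3 higher without overlap, against the backgrounds given for all genes. Among 16 other licensing and firing genes (median -0.32, 3 lower and 0 higher at an unadjusted limma p-value under 0.05), Cdc7, the kinase that fires origins, differed by -2.23 ± 0.84 and Wdhd1, a fork scaffold, by -1.93 ± 0.36. Orc2 was highest at 0.83 ± 0.47. Among 16 tested of 17 other polymerase, loader and lagging-strand genes (median -0.33, 1 lower and 0 higher), Dna2, a flap nuclease, differed by -2.09 ± 0.66, Chtf18, of an alternative clamp loader, by -1.15 ± 0.49 and Rnaseh2c by 1.72 ± 0.86. Among 11 other nucleotide supply genes (median -0.56, 5 lower and 0 higher), Samhd1, which degrades dNTPs, differed by -1.60 ± 0.37, Ctps, which makes CTP, by -1.39 ± 0.58 and Dtymk by 0.69 ± 0.54.

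The list of 24 other fork, checkpoint and chromatin genes had a median of -0.78. At an unadjusted limma p-value under 0.05, 10 were lower (background 10.5%) and 1 was higher (background 9.68%). Brca1, a repair and fork protection gene, had 182, 109 and 149 scaled reads in YAP and 12.2, 21.2 and 25.8 in BrafYAP, a log2 fold change of -2.86 ± 0.48 (limma adjusted p = 0.0760). The nuclease Exo1 differed by -2.29 ± 0.47. The histone chaperone Asf1a had higher values in BrafYAP, with 66.8, 88.4 and 83.4 scaled reads in YAP and 209, 238 and 378 in BrafYAP, at 1.74 ± 0.37 (limma adjusted p = 0.0953). Its paralog Asf1b, chosen after its values were seen, differed by -1.93 ± 0.31 (limma adjusted p = 0.0673). The 16 other E2F and RB family genes had a median of -0.27, with 4 lower and 3 higher at an unadjusted limma p-value under 0.05 (same backgrounds). E2f8 and E2f2 were lowest at -1.97 ± 0.44 and -1.74 ± 0.55, and the RB family gene Rbl2 was highest at 1.35 ± 0.53. E2f8 lay below its YAP values in each BrafYAP library, whereas Rbl2 overlapped.

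The 38 mitosis genes, which act after replication in the same cycling cells, had a median log2 fold change of -2.04. Of these, 37 had a negative log2 fold change, where 55.7% of all tested genes were lower. At an unadjusted limma p-value under 0.05, 31 were lower in BrafYAP (background 10.5%), and 31 were lower without overlap (background 17.1%). Their summed scaled reads were 29458 to 32122 in YAP and 10399 to 14773 in BrafYAP. The mitotic kinesins Kif4 and Kif20a were lowest at -3.37 ± 0.83 and -3.02 ± 0.56, and Cdc20 was highest at 0.06 ± 0.89. Side by side with the replication members, the median of the mitosis genes was further from 0, and this difference between lists was not tested.

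Some markers of other cells differed between the groups. Of 12 macrophage and myeloid markers, 11 were tested, with a median log2 fold change of -1.77. At an unadjusted limma p-value under 0.05, 9 were lower in BrafYAP (background 10.5%), and 7 were lower without overlap (background 17.1%). Their summed scaled reads were 232288 to 781372.5 in YAP and 68231 to 236131 in BrafYAP, and no marker of the list but S100a9, in BrafYAP replicate 2, was at 0. Lyz2 held most of these sums, and without it they were 72325 to 212127 in YAP and 23576 to 58816 in BrafYAP, without overlap. Of 10 T and NK cell markers, 8 were tested with a median of -2.02. Only 1 of them, the pan-leukocyte gene Ptprc, was lower in BrafYAP at an unadjusted limma p-value under 0.05 and without overlap (same backgrounds). The list summed to 2001 to 3254 in YAP and 717 to 1358 in BrafYAP, and its other 9 genes to 329.6 to 711 in YAP and 308 to 485 in BrafYAP, which overlap. Cd8a was at 0 in YAP replicate 3 and BrafYAP replicates 1 and 2, Cd3d in YAP replicate 3 and BrafYAP replicate 1, and Cd3g in BrafYAP replicate 1. The 14 genes of the dissociation response, induced early by tissue digestion, had a median log2 fold change of 1.63. Of these, 8 were higher at an unadjusted limma p-value under 0.05 (background 9.68%). They summed to 171305 to 358867 in YAP and 462964 to 691056 in BrafYAP.

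Sums of the full myeloid list, with Lyz2, overlapped between the groups, and so did those of the remaining marker lists. The epithelial list summed to 139751 to 404460 in YAP and 176433 to 387752 in BrafYAP, the thyroid follicular list to 16323 to 35590.2 and 7757 to 30772, and the fibroblast list to 14291 to 28593 and 11579.6 to 28236. Endothelial markers summed to 383 to 3461 and 175 to 1962, erythroid markers to 155 to 952 and 32.2 to 520.4, and B cell markers to 9.8 to 84.5 and 3.9 to 76.4. Single genes of these remaining lists were separated all the same. Epcam, Dcn and Lum were higher in BrafYAP without overlap (background 11.6%), at 2.10 ± 0.67, 1.94 ± 0.67 and 2.48 ± 0.83. Iyd, Col1a1 and Hbb-bt were lower without overlap (background 17.1%), at -2.23 ± 0.75, -1.50 ± 0.48 and -1.64 ± 0.74. The part of other cell types and of the dissociation response in the lower replication transcripts was not tested.

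**Figure D4:**
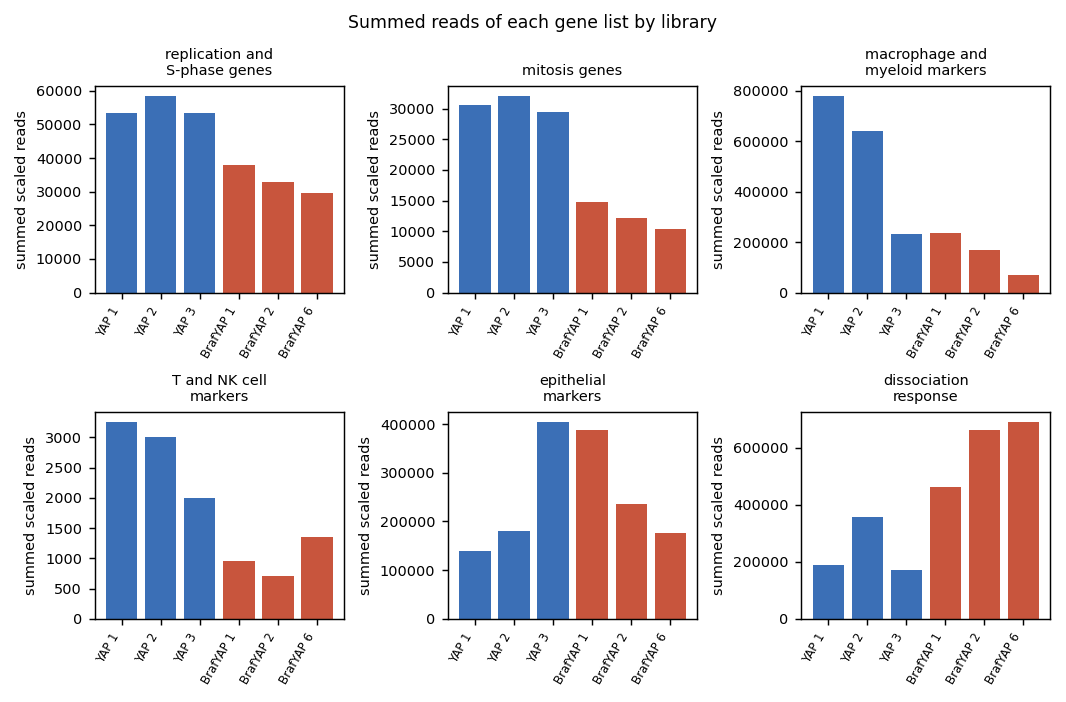
Bars are summed scaled reads of each gene list per library, each panel on its own linear axis from 0, with YAP in blue and BrafYAP in red. Replication and mitosis sums are lower in every BrafYAP library than in every YAP library and dissociation response sums are higher, while the T and NK cell sums are mostly Ptprc and the myeloid sums mostly Lyz2.

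On the deposited TPM, 28 of 51 members reached the mean of 1 needed for the test, since genes with long introns have low values on that scale. In this limma fit of 7319 genes, the adjusted p-value was under 0.05 for 18 (0.246%), of which 0 were members. The members had a median log2 fold change of -0.50, on log2(value + 1), against -0.06 for all genes, and 24 of 28 were lower. At an unadjusted p-value under 0.05, 13 members were lower (background 9.17%), and 15 were lower without overlap (background 16.4%). Pclaf had the lowest adjusted limma p-value here too, 0.0511, at -1.39, followed by Tk1 at -1.43 (adjusted p = 0.0631) and Mcm3 at -1.33 (adjusted p = 0.0702).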

How the data were processed

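Total RNA of sorted Kate-positive cells went through 12 cycles of SMART-Seq amplification and was sequenced after 8 more PCR cycles. The submitters' processing notes name bcl2fastq 2.2, STAR 2.6.1d and Partek, and mm10. Reads were assigned by the authors to genes of Ensembl release 95 by Partek's E/M model, and they deposited TPM with 0.0001 added, 1 column per library (0 columns were left unused). The paper's methods give 1 tumor per replicate, and the labels, which give pools of 3 for YAP, were followed. All columns sum to 181218, and 71.7 to 76.0% of low values (under 200 reads) came within 0.05 of a whole read when multiplied by the genomic span, introns included, against 21.8 to 25.1% with the exonic length. The deposited TPM were thus relative to genomic span, from GENCODE M21 (34645 symbols at one locus), and this division was undone to give scaled reads, which were also divided by exonic length to give exonic TPM. No count model was run, since not all values came out whole.

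The genotypes were compared with limma 3.58.1 (R 4.3.3, lmFit, eBayes with trend) on log2(value + 1), with Benjamini-Hochberg adjustment over all genes tested and a threshold of 0.05, for scaled reads (mean of at least 10) and deposited TPM (mean of at least 1). Groups came from the titles, and p-values measure the spread between these libraries. An exact permutation test of 3 against 3 libraries cannot go below 0.1 and was not used. The fits were tested on simulated data, but the setting and outcome are not given here and no result rests on them. Promoters were searched in Python 3.11.15.

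Members and lists were chosen with earlier results of these data known. Named with all values were the 2 members with the most reads per role, the 5 lowest and 3 highest log2 fold changes, and any past the threshold. Of the other lists, the 2 lowest and the highest gene were named. Other genes were named after their values were seen. One item of the mouse model is not reported here.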

Additional observations from a re-analysis of the deposited data

How the results depend on the processing

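The median log2 fold change of the members was negative under every setting run on both scales, whereas how many genes passed the threshold varied most. On scaled reads, where 0 genes and 0 members passed, quantile normalization gave 62 genes and 2 members, array weights 1884 genes and 16 members (median -0.73), and the removal of both YAP replicate 1 and BrafYAP replicate 6 gave 55 genes, 1 member and a median of -0.69. Median-ratio rescaling moved the median of all genes from -0.12 to 0.01 and that of the members from -0.91 to -0.79. Leaving out each library in turn gave 0 to 142 genes and 0 to 4 members (142 and 4 without BrafYAP replicate 6, 3 genes without YAP replicate 2), a median of -0.99 to -0.76, 21 to 26 members lower at an unadjusted p-value under 0.05 and 32 to 34 without overlap. Of all genes, 2285 to 3839 had an unadjusted limma p-value under 0.05 in either direction in these fits, against 3404 with all 6 libraries. For the settings of this section, on either scale, the shares of all genes lower at that p-value or without overlap are not given. The member counts therefore have no background here, and separation without overlap is easier to reach with 2 libraries in a group than with 3. On deposited TPM, where 18 genes passed, the number was 1 with a pseudocount of 0.1, median-ratio rescaling or eBayes without trend, 0 with a pseudocount of 0.0001 or no filter, 3 with a minimum mean of 10, 79 with quantile normalization, 1393 with array weights (9 members) and 62 with exonic TPM (2 members). The members' median there, -0.50, was -0.67 with a pseudocount of 0.1, -0.69 with 0.0001, -0.30 with no filter and -0.70 with exonic TPM. Members lower at an unadjusted p-value under 0.05 numbered 1, 28 and 23 with a minimum mean of 10, no filter and exonic TPM, and 1, 30 and 27 were lower without overlap. Without single libraries the number of genes was 0 to 465 (465 and 3 members without YAP replicate 2, and 0 without YAP replicate 1 or 3 or BrafYAP replicate 1 or 2), the median -0.56 to -0.37, and 8 to 12 members were lower at an unadjusted p-value under 0.05 and 15 to 19 without overlap. Replicate numbers 1 and 2 occur in both genotypes, but nothing ties the libraries, whose deviations correlated at -0.03 and 0.05. A replicate block left 17 members lower at an unadjusted p-value under 0.05 on scaled reads (26 without it), and on deposited TPM it left 5 such members (13 without it) and 0 genes past the threshold. Of the named members, the sign changed for Pold2 with median-ratio rescaling (0.0597), array weights (0.0401) and the replicate block (0.0612). Without single libraries, or without both YAP replicate 1 and BrafYAP replicate 6, the log2 fold change ranged from -0.26 to 0.13 for Pold2 (above 0 without YAP replicate 2 or BrafYAP replicate 2 or 6), from -0.13 to 0.91 for Gins4 (below 0 without YAP replicate 1), from -0.30 to 0.0632 for Tipin (above 0 without YAP replicate 1) and from -0.66 to 0.00987 for Slbp (above 0 without YAP replicate 2), and the cause was not tested. Array weights were estimated gene by gene because the REML estimate did not converge, and this choice, the removal of 2 libraries, the library pairs and the marker sums without Lyz2 or Ptprc were added after seeing the data. Depth limits members with few reads, such as Clspn with 5.33 scaled reads in BrafYAP replicate 6.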

Other observations

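Base composition was compared with the deviation of YAP replicate 1, the library in which the 6 members with a higher mean in BrafYAP were lowest among YAP. Across the 51 members, the log2 difference of YAP replicate 1 from the mean of the other YAP libraries had a Spearman correlation of -0.38 with the GC content of the transcript, and across all 16834 genes tested it was -0.33. The log2 fold change between the genotypes had a Spearman correlation of 0.11 with GC content over the members and 0.14 over all genes tested. These values describe genes that share libraries, and no p-value is given. The members had a median GC content of 48.9%, against 49.6% for all genes tested.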
